A study of Mus musculus with 15 samples.

Results

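Chromatin accessibility around Klf5 and Klf4, the genes of a pair of Krüppel-like transcription factors, was examined in 15 organoid lines of mouse colon cancer. The members were the regions of the deposited count table that overlapped mm9 chr14:99550000-100200000, a 650 kb window named for Klf5 and its downstream enhancers, or chr4:55400000-55650000, a 250 kb window named for Klf4. They numbered 53 of the 43020 regions in the table, 43 in the Klf5 window and 10 in the Klf4 window. Within the windows, position alone selected them, by no measured value. The members were, however, chosen with earlier results of these data known.

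The groups Met1, Met2 and Met3 were derived from liver metastases that arose in rounds 1, 2 and 3 of transplantation. Their controls, Primary2 and Primary3, were derived from primary tumours that arose in rounds 2 and 3. Each of the 5 groups held 3 lines. All lines carry the genotype given as AKP, which the labels do not expand, and all came from C57Bl6 recipient mice. In the study's design, organoids from metastases, or from primary tumours as controls, were placed back into the colons of immunocompetent mice in each round. No primary lines of the first round entered the comparisons. The labels do not say which line descends from which, and a p-value here covers no more than the variation between the lines of a group.

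ATAC-seq reads open chromatin as the number of fragments that a transposase cuts out of a region, here from 50000 cells a library. The unit below is CPM, the count of a region scaled to a common library size, and a difference is a log2 ratio from the fitted model. A region that is open in fewer cells and one that is less open in each cell give the same count and cannot be told apart. The table carries no gene names, and no mm9 annotation was used. Regions are therefore given by their position and the number in their name, without assignment to a promoter, exon or intron, and the labelled cell type was not checked against marker genes.

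Krüppel-like factors are zinc finger proteins that bind GC-rich and CACCC-like sequences. In the intestine KLF5 is made mainly by dividing cells of the crypt, where it supports proliferation, and KLF4 mainly by differentiated cells nearer the surface, goblet cells among them, where it restrains division. Distal enhancers can lie far from the gene they act on, and long stretches of noncoding DNA beside Klf5 hold many candidate elements. In RefSeq (GRCm38.p6) the nearest protein-coding neighbours of Klf5 are Pibf1 at lower and Klf12 at higher coordinates, and those of Klf4 are Rad23b at lower and Actl7b at higher coordinates. Regions at the low-coordinate end of the Klf5 window may therefore lie in Pibf1.

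The promoter of Klf4 is shown because it is the regulatory sequence of one of the genes the windows are named for. It is the RefSeq sequence at GRCm38.p6 chr4:55532426-55532725 on the minus strand, with 250 bases before and 50 after the start of the gene, and capitals mark GGGCGG or its complement CCGCCC.
Klf4 promoter: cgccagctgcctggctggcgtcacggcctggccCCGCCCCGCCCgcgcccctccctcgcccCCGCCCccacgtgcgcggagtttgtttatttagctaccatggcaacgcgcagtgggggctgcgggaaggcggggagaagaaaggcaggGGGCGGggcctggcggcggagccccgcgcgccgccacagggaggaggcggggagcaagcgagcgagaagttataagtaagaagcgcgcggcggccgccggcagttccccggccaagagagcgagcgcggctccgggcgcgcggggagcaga
The sequence is 74.3% G and C, against a median of 52.7% over 32851 mouse promoters of the same length. The GGGCGG motif, searched on both strands, matched 4 times, at positions 34, 39, 62 and 150 counted from the 5′ end, and the first pair of matches shares a base. At least 1 match was found in 35.7% of all promoters, and at least 4 in 5.49%. CACCC and its complement GGGTG had 0 matches, while 57.5% of all promoters held one. These are matches of letters in a window, and the build differs from that of the count table, so the sequence was not placed on any of the regions below. The promoter of Klf5 was not in the table used.

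Total counts over all regions ranged from 285633 in Primary3 replicate 2 to 5916109, and the other libraries apart from Met1 replicate 1 (790233) had at least 1235330. In Primary3 replicate 2, 17 of the 53 members had 0 counts, and the median member had 3. A count of 0 in that library allows up to 9.56 CPM, by a limit of 3 counts that covers counting error only. Its values at weak regions are therefore imprecise.

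Both windows were richer in regions than their chromosomes. The Klf5 window held 6.62 regions per 100 kb, against 1.45 over chromosome 14, and the Klf4 window held 4.0 per 100 kb, against 1.87 over chromosome 4. Regions were 225 to 2469 bp wide in the Klf5 window (median 827 bp) and 484 to 4946 bp wide in the Klf4 window (median 794.5 bp). Of these, 40 of 43 Klf5 regions and all 10 Klf4 regions passed the filter on low counts and were tested.

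Per kilobase of width, the most accessible region of the Klf5 window was peak_29858 (chr14:99697481-99698628), with a mean of 78.0 CPM per kb over the 15 lines. It was followed by peak_29872 at 70.9, peak_29890 at 63.5, peak_29863 at 57.3 and peak_29877 at 53.3 CPM per kb. The median Klf5 region had 18.1 CPM per kb, and the lowest, peak_29901, had 4.05. In the Klf4 window the range was 7.72 to 32.3 CPM per kb, with peak_65091 (chr4:55527512-55528201) on top, so the strongest Klf5 regions were more accessible for their width than any Klf4 region. The widest region of both windows, peak_65093 (chr4:55543045-55547991, 4946 bp), had the highest CPM of the Klf4 window and 28.1 CPM per kb.

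The main comparison asked whether lines from metastases differ from lines from primary tumours of the same round, taking rounds 2 and 3 together. In the Klf5 window 6 regions were higher and 4 lower in metastasis lines, and in the Klf4 window 1 region was lower. The largest increases, near 5-fold, were at 2 regions on the low-coordinate side of the strongest Klf5 region, at -124.4 and -99.4 kb from its centre. A run of 3 neighbours at 310.8 to 325.9 kb on its other side was about 2-fold higher. The strongest region of each window did not pass the test.

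The test was edgeR's quasi-likelihood test over all 39952 regions that passed the filter, and a region was called where its p, adjusted by the method of Benjamini and Hochberg, was under 0.05. The 11 called members were 22% of the 50 tested. Of all tested regions 20.2% were called, 11.2% higher and 8.98% lower, so the share in these windows was near the background. In the Klf5 window 10 of 40 were called, with a median log2 fold change of 0.05 over all 40, against 0.04 over all tested regions. In the Klf4 window 1 of 10 was called, with a median of -0.26. Without Primary3 replicate 2, 12 of 42 tested Klf5 regions were called, peak_29852 and peak_29888 in addition, against 19.4% of all tested regions. The median over these 42 was -0.001. What follows describes which regions moved.

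**Figure D1:**
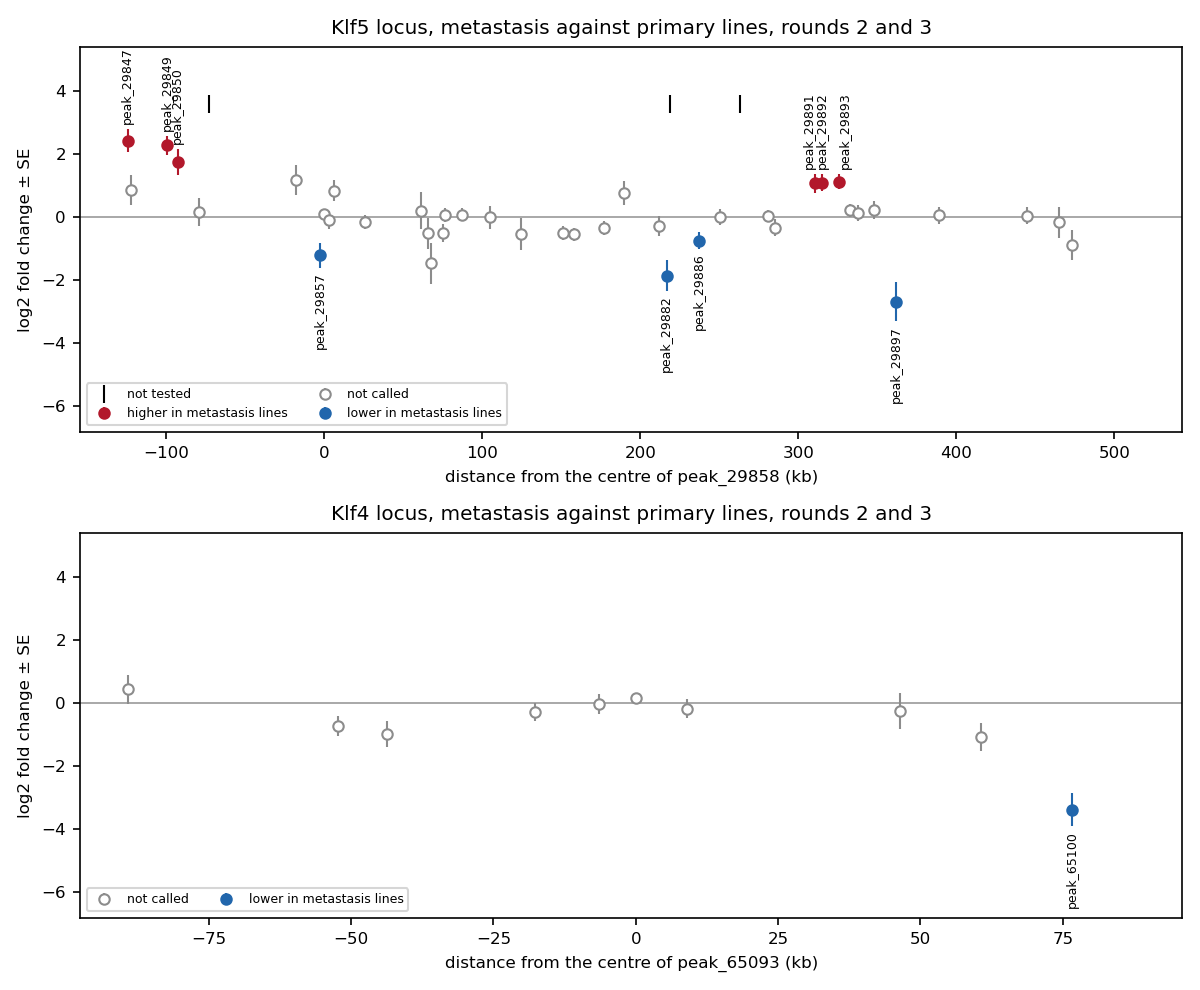
Log2 fold change of metastasis against primary lines in rounds 2 and 3 together, with its standard error, at each tested region of the Klf5 window (upper panel) and the Klf4 window (lower panel), by distance in kb from the centre of the most abundant region. Red points were called higher and blue points lower in metastasis lines (edgeR adjusted p under 0.05), open points were not called, and black ticks mark the 3 regions that were not tested. The called increases lie in groups of 3 on both sides of the strongest Klf5 region, and the only called Klf4 region lies 76.7 kb from peak_65093.

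The low-coordinate increases began with peak_29847 (chr14:99573333-99573926, 593 bp). It had 14.6, 25.1 and 20.3 CPM in the Met2 lines and 16.4, 38.1 and 33.7 in the Met3 lines, against 2.32, 6.57 and 6.45 in the Primary2 lines and 3.85, 0 and 4.82 in the Primary3 lines. All 6 metastasis lines lay above all 6 primary lines. The log2 fold change was 2.43 ± 0.37 (SE), a fold of 5.38, with an edgeR adjusted p of 7.88e-05. At peak_29849 (chr14:99598033-99599310, 1277 bp) the Met2 lines had 21.9, 36.3 and 37.7 CPM and the Met3 lines 42.5, 45.4 and 44.7, against 10.4, 9.85 and 7.26 in the Primary2 lines and 6.64, 0 and 7.57 in the Primary3 lines. The metastasis and primary lines again did not overlap. The Met3 lines were all above the Met2 lines, but Met3 against Met2 did not pass the test here (log2 fold change 0.46 ± 0.37, edgeR adjusted p = 0.877). For metastasis against primary the log2 change was 2.28 ± 0.30, a fold of 4.87, with an adjusted p of 1.17e-05, the smallest of either window.

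The third of this group, peak_29850 (chr14:99604418-99606245, 1827 bp), had 11.3, 22.9 and 21.7 CPM in the Met2 lines and 24.3, 25.6 and 16.2 in the Met3 lines, against 8.69, 7.66 and 3.23 in the Primary2 lines and 3.50, 0 and 8.25 in the Primary3 lines. Here too every metastasis line was above every primary line, by a small gap at Met2 replicate 1. This gave a log2 fold change of 1.75 ± 0.42 (SE), with an edgeR adjusted p of 0.00409. These 3 were the only Klf5 regions of 40 in which all 6 metastasis lines exceeded all 6 primary lines, and in 2 of 40 all 6 lay below. Of all tested regions 7.91% were separated one way or the other. Between the first and the second of them, peak_29848 (chr14:99575656-99576120) had a log2 fold change of 0.87 ± 0.47 and did not pass the test (adjusted p = 0.21).

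On the high-coordinate side, peak_29891, peak_29892 and peak_29893 are consecutive, with gaps of 3.13 and 9.88 kb between them. At peak_29891 (chr14:100008201-100009580) the Met2 lines had 21.2, 38.1 and 24.5 CPM and the Met3 lines 38.9, 30.5 and 57.0, against 13.3, 22.4 and 11.3 in the Primary2 lines and 18.5, 0 and 21.3 in the Primary3 lines. Met2 replicate 1 lay among the upper primary lines, so the groups overlapped. Metastasis lines were higher by a log2 fold change of 1.07 ± 0.31 (SE), with an edgeR adjusted p of 0.0169. Leaving out Met2 replicate 2, Met3 replicate 3 or Primary2 replicate 1 ended this call, with log2 fold changes of 0.91 to 1.01 and adjusted p-values of 0.0506 to 0.0614.

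Next to it, peak_29892 (chr14:100012710-100013666) had 34.5, 43.0 and 21.7 CPM in the Met2 lines and 58.9, 52.3 and 72.5 in the Met3 lines, against 13.9, 31.7 and 17.8 in the Primary2 lines and 22.4, 6.37 and 24.6 in the Primary3 lines. All Met3 lines were above every primary line, whereas Met2 replicate 3 lay within the primary range. The change was 1.10 ± 0.28 on the log2 scale (SE), with an edgeR adjusted p of 0.00618. At peak_29893 (chr14:100023549-100024421) the Met2 lines had 19.9, 57.4 and 52.4 CPM and the Met3 lines 85.7, 56.1 and 62.8, against 19.7, 14.2 and 21.8 in the Primary2 lines and 36.4, 31.9 and 31.5 in the Primary3 lines. Apart from Met2 replicate 1, each metastasis line was above each primary line. The change was 1.13 ± 0.24 on the log2 scale (SE), with an edgeR adjusted p of 0.00187.

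**Figure D2:**
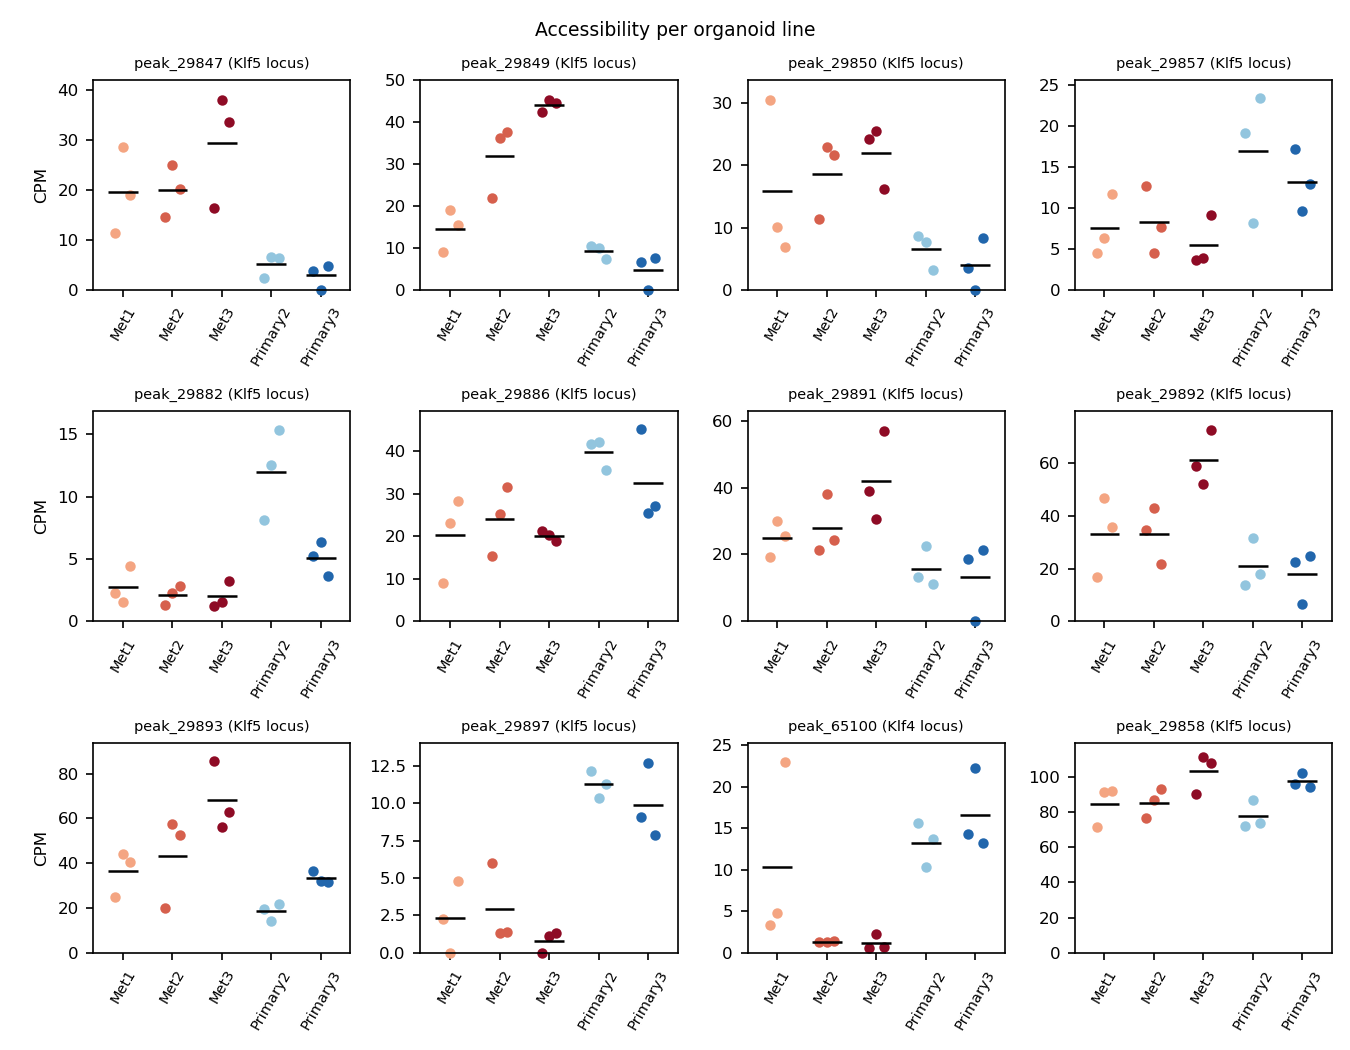
CPM per line at the 11 called regions and, as the most abundant Klf5 region, at peak_29858, with groups in the order Met1, Met2, Met3, Primary2 and Primary3. Each point is a line and each bar a group mean of 3 lines. The metastasis lines of rounds 2 and 3 all lie above the primary lines at peak_29847, peak_29849 and peak_29850 and all below them at peak_29882, peak_29897 and peak_65100, while the groups overlap at peak_29858.

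The 4 decreases in the Klf5 window were scattered and mostly at weak regions. At peak_29897 (chr14:100059937-100060329, 392 bp) the Met2 lines had 5.98, 1.34 and 1.40 CPM and the Met3 lines 0, 1.15 and 1.29, against 12.2, 10.4 and 11.3 in the Primary2 lines and 9.09, 12.7 and 7.91 in the Primary3 lines. The metastasis values rest on 9, 3 and 2 counts in Met2 and on 0, 3 and 2 counts in Met3, and all lay below the primary lines. The difference was -2.67 ± 0.63 on the log2 scale (SE; edgeR adjusted p = 0.00385). At peak_29882 (chr14:99914682-99914993, 311 bp) the Met2 lines had 1.33, 2.24 and 2.80 CPM and the Met3 lines 1.22, 1.53 and 3.24, against 8.11, 12.6 and 15.3 in the Primary2 lines and 5.25, 6.37 and 3.61 in the Primary3 lines. The groups did not overlap, with a narrow gap to the Primary3 lines. The difference was -1.85 ± 0.48 on the log2 scale (SE; edgeR adjusted p = 0.00831).

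The remaining decreases were at the edge of the test. One of them, peak_29857 (chr14:99695068-99695475, 407 bp), lies 2.8 kb from the centre of the strongest Klf5 region. It had 12.6, 4.48 and 7.69 CPM in the Met2 lines and 3.64, 3.81 and 9.06 in the Met3 lines, against 19.1, 8.21 and 23.4 in the Primary2 lines and 17.1, 9.56 and 12.9 in the Primary3 lines. The groups overlapped, with Met2 replicate 1 and Met3 replicate 3 above the lowest primary lines. The change was -1.20 ± 0.39 on the log2 scale (SE), with an edgeR adjusted p of 0.033. The call was lost without any one of 8 lines (replicates 2 and 3 of Met2, 1 and 2 of Met3, 1 and 3 of Primary2, 1 and 3 of Primary3), at log2 fold changes of -1.22 to -1.04 and adjusted p-values of 0.0545 to 0.1.

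The other, peak_29886 (chr14:99934818-99935514, 696 bp), had 15.3, 25.1 and 31.4 CPM in the Met2 lines and 21.3, 20.2 and 18.8 in the Met3 lines, against 41.7, 42.1 and 35.5 in the Primary2 lines and 45.1, 25.5 and 27.0 in the Primary3 lines. Only Met2 replicate 3 reached the lower primary lines. On the log2 scale the change was -0.74 ± 0.26 (SE; edgeR adjusted p = 0.0459). Leaving out any one of the 12 lines other than Met2 replicate 3 and Primary3 replicate 2 ended the call (10 lines), with log2 fold changes of -0.82 to -0.57 and adjusted p-values of 0.0524 to 0.192. It was also lost with no filter on low counts, at an adjusted p of 0.0509.

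At the strongest Klf5 region the difference did not pass the test. At peak_29858 the Met2 lines had 76.4, 86.5 and 93.0 CPM and the Met3 lines 89.9, 111 and 108, against 71.8, 87.0 and 73.4 in the Primary2 lines and 95.8, 102 and 94.1 in the Primary3 lines. The estimate was a log2 fold change of 0.12 ± 0.14 (SE), with an edgeR adjusted p of 0.634, with a 95% interval of -0.18 to 0.41. The lines overlapped throughout, and the interval leaves room for a modest change either way. The next regions by CPM, peak_29877 (chr14:99848057-99849590) and peak_29878 (chr14:99855171-99856505), had log2 fold changes of -0.50 ± 0.21 and -0.54 ± 0.21 with adjusted p-values of 0.099 and 0.0734, and did not pass. Among uncalled regions the largest estimate was -1.46 ± 0.66 at peak_29869 (chr14:99765524-99765857, adjusted p = 0.123).

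In the Klf4 window the called region was peak_65100 (chr4:55621904-55622524, 620 bp), 76.7 kb from the centre of peak_65093. It had 1.33, 1.34 and 1.40 CPM in the Met2 lines and 0.607, 2.29 and 0.647 in the Met3 lines, against 15.6, 10.4 and 13.7 in the Primary2 lines and 14.3, 22.3 and 13.2 in the Primary3 lines. The metastasis values rest on 2, 3 and 2 counts in Met2 and on 1, 6 and 1 counts in Met3, and the groups were far apart. The difference was -3.37 ± 0.52 on the log2 scale (SE), a fold of 0.0966, with an edgeR adjusted p of 8.27e-05. It was the only Klf4 region of 10 in which all 6 metastasis lines lay on one side of all 6 primary lines, and its counts fell under a stricter filter (minimum count 30), which left it untested.

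The other 9 Klf4 regions were not called. At peak_65093 the Met2 lines had 143, 134 and 155 CPM and the Met3 lines 146, 170 and 140, against 111, 115 and 129 in the Primary2 lines and 156, 162 and 128 in the Primary3 lines. The Met2 lines were all above the Primary2 lines, but the Met3 and Primary3 lines overlapped. The estimate was a log2 fold change of 0.17 ± 0.13 (SE), with an edgeR adjusted p of 0.424, with a 95% interval of -0.11 to 0.44. At peak_65091, the top region per kilobase, means were 16.3 ± 3.49 CPM in Met2 and 23.2 ± 1.59 in Met3, against 19.8 ± 9.56 in Primary2 and 31.2 ± 14.4 in Primary3 (SD, n = 3 each), and the estimated change was -0.27 ± 0.28 on the log2 scale (SE; edgeR adjusted p = 0.566). The largest estimate among the uncalled was -1.07 ± 0.45 at peak_65098 (chr4:55605752-55606514, adjusted p = 0.0981). Without Primary3 replicate 2 a second Klf4 region, peak_65089, was called as well, which made the count 2.

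Each round was also tested alone. In round 2, Met2 against Primary2, 4 of 40 Klf5 regions and 1 of 10 Klf4 regions were called, against 6.21% of all tested regions (3.44% higher and 2.77% lower). Klf5 regions peak_29847, peak_29849 and peak_29893 were higher and peak_29882 was lower, and the Klf4 region was peak_65100, which was lower. Their log2 fold changes were 1.98 ± 0.53, 1.78 ± 0.41, 1.24 ± 0.35, -2.46 ± 0.67 and -3.23 ± 0.74 in that order, with edgeR adjusted p-values of 0.0257, 0.0117, 0.0357, 0.0287 and 0.0108. With any single line left out, at most 3 Klf5 regions were called. Over all tested regions the share called fell too, except without Met2 replicate 1, where it was 6.84%. The Klf5 number was 2 without Met2 replicate 2 or without Met2 replicate 3, where 4.94% and 4.26% of all tested regions were called. It was 1 without Primary2 replicate 1 or without Primary2 replicate 2 and 0 without Primary2 replicate 3, where 2.33%, 2.69% and 2.83% of all tested regions were called. The call at peak_29849 was lost only without Primary2 replicate 3 (log2 fold change 1.66, adjusted p = 0.0582), and that at peak_65100 was kept without each of the 6 lines. At peak_29847 it was lost without Met2 replicate 2 or any one Primary2 line, at adjusted p-values of 0.0584 to 0.14, and when only Met2 and Primary2 were fitted (adjusted p = 0.0542). At peak_29882 it was lost without any one of the 6 lines. At peak_29893 it was lost without any one other than Met2 replicate 1, and when only Met2 and Primary2 were fitted (edgeR adjusted p = 0.12).

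In round 3, Met3 against Primary3, 5 of 40 Klf5 regions and 1 of 10 Klf4 regions were called, against 10.2% of all tested regions (5.64% higher and 4.52% lower). Regions peak_29847, peak_29849, peak_29850 and peak_29892 were higher and peak_29897 and, in the Klf4 window, peak_65100 were lower. The log2 fold change was 2.88 ± 0.53 at peak_29847 (edgeR adjusted p = 0.00138) and 2.78 ± 0.43 at peak_29849 (edgeR adjusted p = 0.000315), and both calls were kept without each line. It was 2.03 ± 0.59 at peak_29850 (edgeR adjusted p = 0.0298) and 1.55 ± 0.39 at peak_29892 (edgeR adjusted p = 0.0126). At the lower regions it was -3.37 ± 0.95 at peak_29897 (edgeR adjusted p = 0.0254) and -3.51 ± 0.73 at peak_65100 (edgeR adjusted p = 0.00366). The other Klf5 calls of this round each depended on single lines. At peak_29850 the call was lost without replicate 1 or 2 of Met3 or replicate 1 or 2 of Primary3, at log2 fold changes of 1.74 to 1.95. At peak_29892 it was lost without Met3 replicate 3 or Primary3 replicate 1, at 1.42 to 1.62, and at peak_29897 without any one line other than Primary3 replicate 2, at -3.77 to -2.89. The Klf5 count was 3 without Met3 replicate 1, without Met3 replicate 2 or without Primary3 replicate 1, where 4.44%, 6.43% and 3.6% of all tested regions were called.

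Both rounds called peak_29847 and peak_29849 in the Klf5 window and peak_65100 in the Klf4 window. Over all tested members the rounds were less alike. Fold changes had the same sign in both rounds at 22 of 40 Klf5 regions (55%) and 7 of 10 Klf4 regions (70%), against 68% of all tested regions. The median Klf5 log2 fold change was 0.20 in round 3 and -0.29 in round 2, against 0.05 and 0.03 over all tested regions. The test of the difference between rounds called 0 regions in either window and 0% of all tested regions with edgeR. DESeq2 also called 0 in either window, and 0.0633% of all regions that it gave an adjusted p. Before adjustment 3 Klf5 and 0 Klf4 regions had an edgeR p under 0.05, and the smallest edgeR adjusted p was 0.66, at peak_29851.

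Without a model, the CPM of the Met3 and Primary3 lines did not overlap at 18 of 40 Klf5 regions, 11 with Met3 above and 7 with Met3 below, against a background of 31.3%. In round 2 they did not overlap at 15 of 40, 4 with Met2 above and 11 with Met2 below, against 25.3%. In the Klf4 window it was 3 of 10 in each round, all with Met3 below in round 3 and 1 above and 2 below in round 2.

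**Figure D3:**
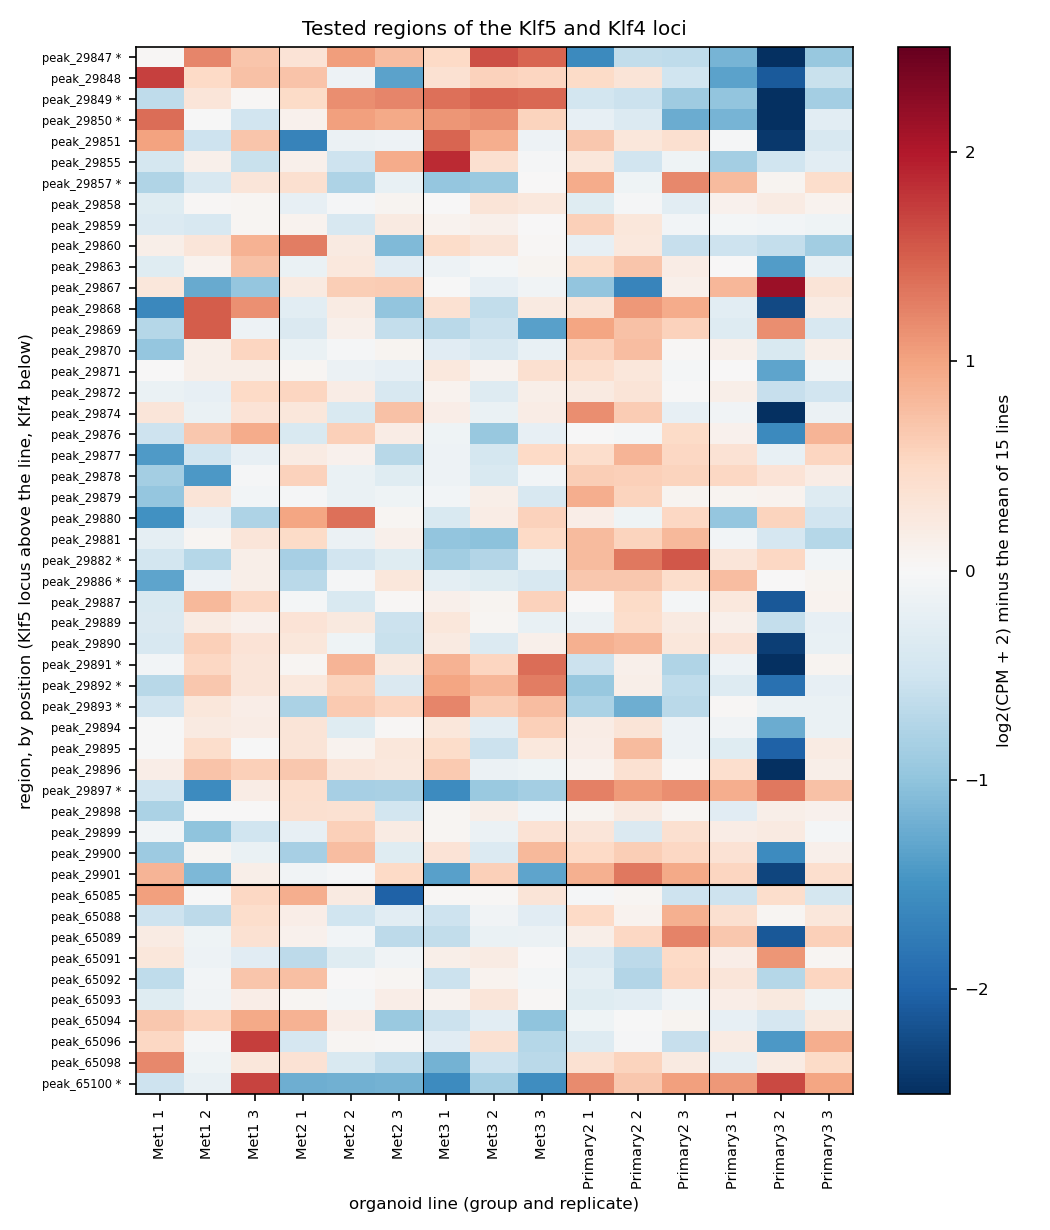
Log2(CPM + 2) of the 50 tested regions, minus the mean of the 15 lines, with lines in columns by group and regions in rows by position, and with the colour scale ending at 2.5 in both directions. Stars mark the 11 called regions. The upper block of Klf5 rows holds the 3 low-coordinate increases, and the column of Primary3 replicate 2, the shallowest library, is low at many Klf5 rows.

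Lines of the first metastatic round have no primary lines of their own round, so round and origin cannot be told apart when they are set against the primary lines of rounds 2 and 3. In that comparison 4 of 40 Klf5 regions and 0 of 10 Klf4 regions were called, against 9.47% of all tested regions (4.53% higher and 4.94% lower). The zero in the Klf4 window came from edgeR, with DESeq2 also at 0 and 1 region at an unadjusted p under 0.05. At peak_29847 the Met1 lines had 11.3, 28.6 and 19.1 CPM, all above every primary line, and the log2 fold change was 2.17 ± 0.42 (edgeR adjusted p = 0.00207). This call was kept without each single line, unlike the call of the same region in round 2.

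At peak_29849 the Met1 lines had 9.06, 19.0 and 15.5 CPM. Their mean of 14.5 CPM lay below the Met2 mean of 32.0 and above the Primary2 and Primary3 means of 9.18 and 4.74, and the log2 fold change against primary was 0.97 ± 0.35 (edgeR adjusted p = 0.0834). A pair of further regions near the centre of the Klf5 window were lower in Met1. At peak_29877 the Met1 lines had 27.2, 53.6 and 65.9 CPM, against 104, 138 and 110 in the Primary2 lines and 98.6, 66.9 and 111 in the Primary3 lines. All Met1 lines were below all primary lines, and the change was -1.07 ± 0.27 on the log2 scale (SE; edgeR adjusted p = 0.0136). At peak_29878 the Met1 lines had 34.0, 21.9 and 61.2 CPM, against 97.3, 95.2 and 92.8 in the Primary2 lines and 89.9, 79.7 and 71.4 in the Primary3 lines, and the change was -1.14 ± 0.27 on the log2 scale (SE; edgeR adjusted p = 0.00857).

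The Met1 calls other than peak_29847 rested on few lines. Without Met1 replicate 2 the log2 fold change was -0.82 at peak_29878 (edgeR adjusted p = 0.109), and without Met1 replicate 1 or 2 the call at peak_29877 was lost at adjusted p-values of 0.0583 to 0.068. The last of the 4, peak_29848, had 26.0, 10.2 and 12.2 CPM in the Met1 lines, against 9.85, 8.75 and 4.03 in the Primary2 lines and 1.40, 0 and 3.78 in the Primary3 lines. The log2 fold change was 1.80 ± 0.53 (edgeR adjusted p = 0.0324), and the call was lost without any Met1 line, Primary2 replicate 3 or Primary3 replicate 1, at 1.34 to 2.08. The Klf5 count was 2 without Met1 replicate 1 and 1 without Met1 replicate 2, where 8.7% and 2.84% of all tested regions were called.

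Later metastasis lines were then compared with those of round 1, which share their Met1 lines between both comparisons. In Met3 against Met1, 1 of 40 Klf5 regions was higher and 2 of 10 Klf4 regions were lower, against 9.54% of all tested regions called (5.98% higher and 3.56% lower). The Klf5 region was peak_29849, with 44.2 ± 1.50 CPM in Met3 and 14.5 ± 5.06 in Met1 (SD, n = 3 each), a log2 fold change of 1.54 ± 0.39 and an edgeR adjusted p of 0.0127. Without Met1 replicate 3 the value was 1.57 with an adjusted p of 0.0521, so 0 Klf5 regions were called then. The count was 3 without Met1 replicate 1 and 2 without Met3 replicate 3. Of all tested regions 4.73%, 8.79% and 6.1% were called in those 3 cases.

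At peak_65100 the Met1 lines were unlike each other, with 3.40, 4.76 and 23.0 CPM. Met3 against Met1 gave -3.02 ± 0.72 on the log2 scale (SE; edgeR adjusted p = 0.00936), and Met2 against Met1 gave -2.98 ± 0.73 (edgeR adjusted p = 0.0233). Met1 replicate 3, at 23.0 CPM, was above every primary line. The nearest was Primary3 replicate 2 at 22.3 CPM, which rests on 7 counts, and the other primary lines had at most 15.6 CPM. Without Met1 replicate 3, the log2 fold changes of Met3 and Met2 against Met1 were -1.66 (edgeR adjusted p = 0.207) and -1.60 (edgeR adjusted p = 0.351). The call of Met3 against Met1 was also lost without Met3 replicate 1, and that of Met2 against Met1 without Met2 replicate 2 or 3. At peak_65094 (chr4:55554120-55554947) the Met3 lines had 11.5, 14.5 and 7.77 CPM, against 29.4, 26.6 and 35.8 in the Met1 lines. The groups did not overlap, and the log2 fold change was -1.42 ± 0.42 (edgeR adjusted p = 0.0329), lost without any one of the 6 lines other than Met1 replicate 1 at adjusted p-values of 0.0554 to 0.134. The Klf4 count was 0 without Met1 replicate 3 or Met3 replicate 1 and 1 without Met1 replicate 2, Met3 replicate 2 or Met3 replicate 3, where the share of all tested regions called lay between 4.49% and 6.1%.

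Met2 against Met1 called 0 of 40 Klf5 regions and 1 of 10 Klf4 regions, peak_65100, against 3.55% of all tested regions (2.64% higher and 0.909% lower). Before adjustment 6 Klf5 regions had a p under 0.05, and DESeq2 called 1 of the 40. The edgeR count there was 1 without Met1 replicate 3 or without Met2 replicate 3, and the Klf4 count was 0 without Met1 replicate 3, Met2 replicate 2 or Met2 replicate 3. Without those lines 1.16%, 2.78% and 1.76% of all tested regions were called. Met3 against Met2 called 0 in either window and 0% of all tested regions. There DESeq2 called 0 in either window too, and 0.151% of all regions that it gave an adjusted p. Before adjustment 2 Klf5 and 0 Klf4 regions had an edgeR p under 0.05.

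Between the primary groups, Primary3 against Primary2, edgeR called 0 regions in either window and 0% of all tested regions. DESeq2 called 0 in either window, and 0.273% of all regions that it gave an adjusted p. Before adjustment 8 Klf5 and 0 Klf4 regions had an edgeR p under 0.05. The Klf5 fold changes nevertheless leaned one way. The median was -0.44, with 35 of 40 below 0, against a median of -0.05 over all tested regions, with 21623 of 39952 below 0. Without Primary3 replicate 2 the median was -0.36, with 34 of 42 below 0. Chromosome 14 as a whole stood at -0.06 ± 0.09 in the Primary3 lines and 0.09 ± 0.04 in the Primary2 lines (log2 deviation from the median of all tested regions, SD, n = 3 each), and with each chromosome's median removed the Klf5 median was -0.30. The library and the chromosome medians were not removed together, and their part in the lean was not tested.

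Summed over a window, accessibility overlapped between groups. The 43 Klf5 regions together had 1148, 1120 and 968 CPM in the Met2 lines and 1214, 1052 and 1252 in the Met3 lines, against 1200, 1317 and 1077 in the Primary2 lines and 1060, 659.5 and 957 in the Primary3 lines. The lowest Klf5 sums were thus those of Primary3 replicate 2 and, at 781 CPM, Met1 replicate 1, the same lines as the shallowest libraries. The part of depth in these sums was not tested. The 10 Klf4 regions together had 238 ± 27.7 CPM in Met2 and 233 ± 27.0 in Met3, against 233 ± 34.9 in Primary2 and 272.5 ± 14.3 in Primary3 (SD, n = 3 each). The difference of mean log2 sums, metastasis minus primary over rounds 2 and 3, was 0.13 for Klf5 and -0.10 for Klf4. Without Primary3 replicate 2 alone the Klf5 difference was 0.03, and with any single line left out the Klf4 difference ran from -0.15 to -0.04, the value nearest 0 being without Primary2 replicate 3.

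**Figure D4:**
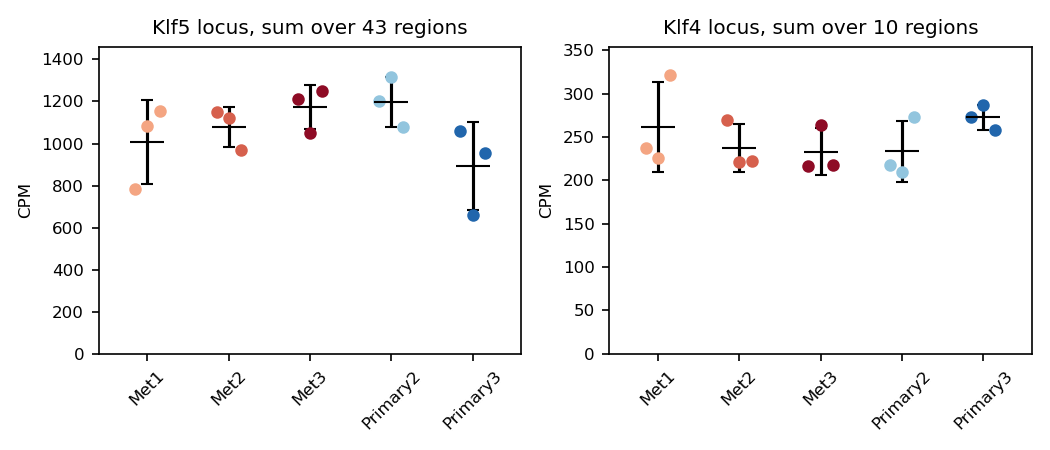
Sum of CPM over the 43 regions of the Klf5 window and the 10 regions of the Klf4 window in each line, by group, with the group mean and its standard deviation (n = 3 each). The groups overlap in both windows, and the lowest Klf5 point is Primary3 replicate 2 at 659.5 CPM.

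The filter on low counts removed 3 Klf5 regions. At peak_29852 (chr14:99625172-99625397) the Met2 lines had 1.33, 5.38 and 4.19 CPM and the Met3 lines 18.8, 6.87 and 1.29, against 2.32, 1.09 and 0.807 in the Primary2 lines and 0 in all Primary3 lines. Met3 replicate 1 stood above all others there. At peak_29888 (chr14:99960814-99961039) the Met2 lines had 14.6, 3.14 and 14.7 CPM and the Met3 lines 2.43, 4.58 and 2.59, against 2.32, 1.09 and 0 in the Primary2 lines and 0.699, 0 and 0.172 in the Primary3 lines. All metastasis lines were above the primary lines, by little in Met3. The third, peak_29883 (chr14:99916945-99917195), had at most 1.91 CPM in Met2 and Met3, against up to 5.25 CPM in the primary lines. With no filter, these 3 regions were called for metastasis against primary. In that setting 13 of the 53 members were called, against 18.6% of all 43020 regions.

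Regions that were called in the same direction varied together over the 15 lines to different degrees. Pearson's r of log2 CPM was 0.91 between peak_29847 and peak_29849, and 0.90 between peak_29849 and peak_29891, which lie on opposite sides of the strongest Klf5 region. It was 0.87 between the neighbours peak_29891 and peak_29892, 0.55 between peak_29892 and peak_29893 and 0.38 between peak_29891 and peak_29893, the lowest among the 6 increases. With peak_29850, peak_29893 had an r of 0.40. Primary3 replicate 2, the shallowest library, had 0 counts at peak_29847, peak_29849, peak_29850 and peak_29891. It had 2 counts at peak_29892 and 10 at peak_29893. All these r values include that library and were not computed without it, so its part in the low r of peak_29893 was not tested. Across chromosomes, the decrease at peak_65100 in the Klf4 window had r = -0.79 with peak_29849 and 0.77 with peak_29897. These regions were called in the same contrast and share libraries and depth, so the values only describe how the lines are ordered.

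Among 19948 regions outside both windows with at least median signal, those most like peak_29858 over the 15 lines were peak_19643 (chr12:45369667-45370782, r = 0.94), peak_26839 (chr14:20642595-20643481, r = 0.94) and peak_23649 (chr13:31898128-31900519, r = 0.89). Those most like peak_65093 were peak_90251 (chr7:80703161-80703961, r = 0.91), peak_176 (chr1:13362273-13363216, r = 0.88) and peak_37219 (chr16:44347241-44348056, r = 0.88). They are given without a test and share libraries and depth with the regions they resemble.

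The surroundings were compared over 1 Mb on each side of a window. Metastasis against primary called 2 of 14 tested regions beside the Klf5 window (14.3%) and 17 of 54 beside the Klf4 window (31.5%), against 25% and 10% inside. No test of these shares was made. The chromosomes as a whole moved little. The log2 deviation of chromosome 14 was -0.01 ± 0.05 in the Met2 and Met3 lines and 0.01 ± 0.11 in the primary lines, and that of chromosome 4 was 0.02 ± 0.04 and -0.05 ± 0.13 in the same groups (SD, n = 6 each). With chromosome medians removed, all 11 called regions were called again.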

How the data were processed

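ATAC-seq counts of 15 organoid lines were analysed. The authors deposited a table of whole-number counts, with 43020 regions named as called over all samples in rows and the libraries in columns. Per the submitters' processing notes, the tools were Bowtie, MACS2, Picard, bedtools and SAMtools and the build was mm9; roles, versions and any shift for the transposase are not given in the sources used here, and duplicate handling could change low counts. Coordinates are those of the table. Groups and replicate numbers came from the sample titles.

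The whole table was fitted with edgeR 4.0.16 (limma 3.58.1, R 4.3.3): filterByExpr (minimum count 10, minimum total 15) left 39952 regions (92.9%), libraries were scaled by TMM, and a robust quasi-likelihood model with 5 group means gave Benjamini-Hochberg adjusted p-values over all tested regions, called under 0.05. Standard errors are the absolute log2 fold change over the root of F. Log2 CPM used a prior count of 2, as in edgeR. The code was tested on simulated data. Totals ranged from 285633 to 5916109 counts; replicates within groups correlated at 0.692 to 0.929. Intervals (95%) and the limit of 3 counts cover these lines and counting error only.

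The members and lists were chosen with earlier results of these data known. Named regions were every member called for rounds 2 and 3 together, the 3 most abundant of each window, up to 3 called per other comparison, and the uncalled one with the largest fold change; 4 further calls were named after their values were seen (peak_29893 in round 2, peak_29850 and peak_29897 in round 3, peak_29848 in Met1), as were the regions that ranked high or low per kilobase, the untested ones and peak_29851 and peak_65089. Alternatives were scaling by totals, no filter and a stricter one, a replicate block, removal of chromosome medians or of a trend on signal, omission of the 2 shallowest libraries or of each line, a fit of only the groups compared, and DESeq2 1.42.0. Other Krüppel-like genes and cell markers were not analysed, since no mm9 annotation was used.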

Additional observations from a re-analysis of the deposited data

Results flagged for a closer look

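In 44 sets of 6 primary or 9 metastasis lines, over 22 regions or sums, a single line stood far off in 4. Chance alone gives about 1 in 20 for separate sets of like lines. These sets share lines and pool groups that differ, so the count cannot be judged against that rate. In 3 of the 4 the line was Primary3 replicate 2, the shallowest library, with 0 counts and a log2 CPM of -0.10 at peak_29849, peak_29850 and peak_29891. The other primary lines had 2.92 to 3.51 at peak_29849, 2.06 to 3.27 at peak_29850 and 3.61 to 4.55 at peak_29891. A count of 0 there allows up to 9.56 CPM. Without that library all 3 regions were still called for metastasis against primary.

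At peak_65100 Met1 replicate 3 had a log2 CPM of 4.58, against 0.62 to 2.51 in the other 8 metastasis lines. Without this line neither Met3 nor Met2 differed from Met1 past the threshold at this region (edgeR adjusted p-values of 0.207 and 0.351). The group means compared for metastasis against primary in rounds 2 and 3 do not include this line. Its spread does enter that test, since all 15 lines share an estimate of the spread. With only the groups compared fitted, which leaves out Met1, peak_65100 was still called.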

How the results depend on the processing

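For rounds 2 and 3 together the Klf5 count lay between 7 and 13 under the other settings and between 9 and 12 with 1 line left out, and the Klf4 count between 1 and 2 with 1 line left out. The share of all tested regions called lay between 18.2% and 25.3% under the other settings and between 14.5% and 21.8% with 1 line left out. With the stricter filter, 29 Klf5 and 5 Klf4 regions were tested. Of these 7 were called, all among the 11, against 25.3% of all tested regions. The Klf4 counts were 0 for rounds 2 and 3 together, 0 in round 2 (9.87% of all) and 0 in round 3 (14%). They were 1 for Met3 against Met1 (12.8%) and 0 for Met2 against Met1 (4.82%), with fewer regions tested. Without the 2 shallowest libraries 15 regions were called, with all 11 among them, against 21.9% of all tested regions, and the Klf4 count was 2. The Klf5 count for Met3 against Met1 was then 3 (9.61% of all), against 2 with no filter (8.79%). Fitting only the groups compared gave 2 Klf5 regions in round 2, where 3.93% of all tested regions were called, and 9 in round 3, where 16.7% were. In the Klf4 window it gave 1 for Met3 against Met1 (11.8% of all) and 0 for Met2 against Met1 (0.162%). DESeq2 gave 8 Klf5 regions in round 3 (12.7% of all) and 1 for Met2 against Met1 (5.06%). The cause of these moves was not tested.

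With 1 line left out, Klf5 counts ran from 0 to 3 in round 2, 3 to 5 in round 3, 0 to 3 for Met3 against Met1, 0 to 1 for Met2 against Met1 and 1 to 4 for Met1 against primary. Klf4 counts ran from 0 to 2 for Met3 against Met1 and 0 to 1 for Met2 against Met1, and stayed at 1 in rounds 2 and 3 alone. The differences of summed signal ran from 0.03 to 0.20 (Klf5) and from -0.15 to -0.04 (Klf4).

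Lines with the same replicate number did not vary together (r from -0.21 to 0.16 over 30 pairs, 2 of them over 0.1), so the numbers were not taken as pairing. The replicate block called 11 regions for rounds 2 and 3 together, against 18.2% of all tested regions. Of the 11, 10 were shared (peak_29886 was lost at an edgeR adjusted p of 0.0607 and peak_29869 gained at 0.0474). The block called 3 Klf5 regions in round 3 (8.27% of all) and 0 Klf4 regions for Met2 against Met1 (2.67%).

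Over 20 named regions, 596 of 681 alternative values kept their direction and call, 76 lost and 8 gained a call, and 1 changed sign, at peak_65094, whose metastasis against primary value of -0.17 was 0.006 without Met2 replicate 3 (with 1 line left out, -0.424 to 0.006). Scaling by total counts moved the median of all regions in Met3 against Met1 to -0.17, against -0.04, and the calls to 1871 higher and 1829 lower, against 2389 and 1424. Depth limits the weak regions most, those under 3 counts in metastasis lines above all.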
